A study of Mus musculus with 144 samples.

Results

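Chromosomes 9 and 12 (Chr9 and Chr12) were followed through the single-nucleus copy number calls of 2 murine T-ALLs (T-cell acute lymphoblastic lymphomas) and 1 untransformed thymus. They are 2 of the 19 mouse autosomes, and with 135 cells they gave 270 of 2565 autosome states. Both were chosen by measured values of the same tables: among the 12 autosomes that were not gained as a rule in T-ALL 2, Chr12 (16 cells) and Chr9 (10 cells) had the highest numbers of gained cells, and the next was Chr18 (5 cells). The shares of gained and lost cells below are for that reason a description. The T-ALLs came from Lck-Cre+ mice that were f/f (floxed) for both Mad2 and p53, and the thymus from a Lck-Cre- mouse that was wt for both, all labelled C57BL/6/Sv129. The Lck promoter drives Cre in the T-cell lineage, the experimental mice were watched for 3 to 4 months and killed when breathing became difficult, and each tumor and the thymus was 1 animal. T-ALL 1 had a call in each of 46 cells, T-ALL 2 in 44 of 46 and the thymus in 45 of 46. The read depth behind a call is unknown, and the tables hold copy numbers alone, so T-cell identity was not checked against marker genes.

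Mad2 belongs to the spindle assembly checkpoint, the control that holds back anaphase until every chromosome is attached to the spindle, and p53 is a tumor suppressor that limits the growth of aneuploid cells. When the checkpoint fails, sister chromatids can go to the same daughter cell, which leaves one daughter with a gain and the other with a loss of a whole chromosome. A gain present in nearly all cells of a tumor is called clonal and one present in a fraction of cells subclonal. Here gained means more than 2 copies and lost fewer than 2, and a gain was clonal when the most common state was above 2. By that rule Chr14, Chr15, Chr16 and Chr17 were clonally gained in T-ALL 1, and Chr1, Chr2, Chr4, Chr5, Chr14, Chr15 and Chr17 in T-ALL 2.

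Chr12 gains were present in a minority of cells of both T-ALLs, whereas Chr9 gains were nearly limited to T-ALL 2. T-ALL 1 had 11 Chr12-gained cells among 46 (23.9%, exact 95% interval 12.6% to 38.8%), and T-ALL 2 had 16 among 44 (36.4%, interval 22.4% to 52.2%). The thymus had 0 of 45 cells with a Chr12 gain, with an exact 95% interval up to 7.87%. Chr9 was gained in a single cell of T-ALL 1 (1 of 46, 2.17%, interval 0.0550% to 11.5%). In T-ALL 2 it was gained in 10 of 44 (22.7%, interval 11.5% to 37.8%), against 0 of 45 in the thymus (interval up to 7.87%). By cell number, the Chr9 gains of T-ALL 2 fell on 8 of 21 odd-numbered cells (38.1%) and 2 of 23 even-numbered ones (8.70%), and what the number stands for is not given in the labels. The Chr12 intervals of the tumors overlapped. Those of Chr9 overlapped narrowly with the exact method and did not overlap with Wilson's, which gave 0.385% to 11.3% for T-ALL 1 and 12.8% to 37.0% for T-ALL 2. These intervals cover the counting of cells only. Chr9 was also chosen for its gained cells in T-ALL 2, so its contrast between the tumors is not independent of that choice. With 1 animal per tumor no test was possible, and no difference has a replicate check.

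A share of cells means little without the rate at which other autosomes were gained. Gains made up 26.4% of all autosome calls of T-ALL 1 and 38.9% of those of T-ALL 2, against 0% for the thymus. Most of these belonged to clonally gained chromosomes. Among the other autosomes without a clonal gain, leaving out Chr9 and Chr12, the rate was 11.2% for T-ALL 1 and 4.32% for T-ALL 2. The Chr12 share was above this rate in either tumor, and the Chr9 share was above it in T-ALL 2 and below it in T-ALL 1. For T-ALL 2 this order was fixed in advance, because both chromosomes were chosen for their numbers of gained cells there. Ranked by gained cells, Chr12 was 3rd of 15 such autosomes in T-ALL 1, behind Chr4 (13 cells) and Chr1 (12 cells) and just ahead of Chr5 (10 cells), while Chr9 was 15th of 15.

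Losses of both chromosomes were rare. For Chr9, T-ALL 1 had 2 cells with a loss among 46 (4.35%, interval 0.531% to 14.8%) and T-ALL 2 had 1 among 44 (2.27%, interval 0.0575% to 12.0%), against 0 of 45 for the thymus. For Chr12, T-ALL 1 had none (0 of 46, interval up to 7.71%) and T-ALL 2 had 1 among 44 (2.27%), against 0 of 45 for the thymus. Of all autosome calls, losses took 2.4% for T-ALL 1 and 1.56% for T-ALL 2, against 0.234% for the thymus. Of the calls of the other autosomes without a clonal gain they took 3.01% for T-ALL 1 and 1.82% for T-ALL 2. The loss shares of Chr9 and Chr12 are near these rates. A state of 4 occurred once for each chromosome, for Chr9 in cell 7 of T-ALL 2 and for Chr12 in cell 8 of T-ALL 1. The mean copy number of Chr12 was 2.26 ± 0.491 (SD over 46 cells) for T-ALL 1 and 2.34 ± 0.526 (SD over 44 cells) for T-ALL 2, against 2 in each of the 45 thymus cells. For Chr9 it was 1.98 ± 0.257 for T-ALL 1 and 2.23 ± 0.522 for T-ALL 2, against 2 in every thymus cell. In the well of each animal that held 10 nuclei, both chromosomes were called at 2 copies, so neither gain was visible in the pooled wells of the tumors.

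The joint states of Chr9 and Chr12 asked whether the gains excluded each other, came together or combined freely. In T-ALL 2 they combined in all 4 ways. Both were gained in 5 of 44 cells (11.4%, interval 3.79% to 24.6%), Chr9 alone in 5 cells (11.4%), Chr12 alone in 11 cells (25%, interval 13.2% to 40.3%) and neither in 23 cells (52.3%). The cells with both gains were 5, 11, 18, 31 and 32, each with 3 copies of both chromosomes. Those with a Chr9 gain alone were 1, 7, 19, 27 and 35.

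**Figure D1:**
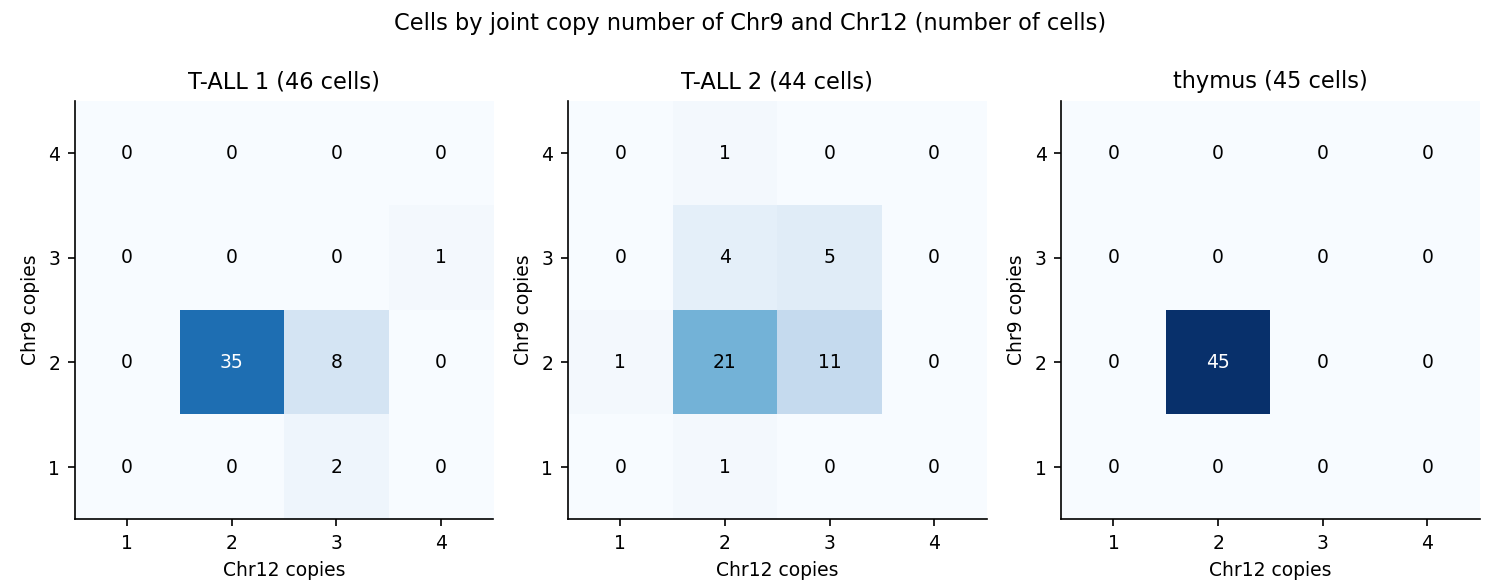
Number of cells at each combination of Chr9 copies (vertical axis) and Chr12 copies (horizontal axis) in T-ALL 1, T-ALL 2 and the thymus, with darker squares for a higher percentage of cells. T-ALL 2 has 21 cells at 2 copies of both, 11 with Chr12 alone at 3 and 5 with both at 3, and all 45 thymus cells sit at 2 copies of both.

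Neither exclusion nor coupling of the gains was detectable in T-ALL 2 at this number of cells. Chr12 was gained in 5 of 10 cells with a Chr9 gain (50%, interval 18.7% to 81.3%), against 11 of 34 cells without one (32.4%, interval 17.4% to 50.5%). The difference was 17.6 percentage points with a Newcombe interval of -13.6 to 47.1, which leaves room for a difference in either direction. Read the other way, Chr9 was gained in 5 of 16 cells with a Chr12 gain (31.3%), against 5 of 28 cells without (17.9%). The phi coefficient of the gains, which is 0 when they are unrelated and 1 when they always coincide, was 0.154 over 44 cells. Of the 10 pairs among the 5 autosomes of T-ALL 2 with at least 5 gained and 5 not gained cells, this was the 3rd highest, in a range from -0.194 (Chr9 with Chr18) to 0.232 (Chr2 with Chr18). All calls of a cell come from 1 library and are relative to each other, so phi is given as a description.

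In T-ALL 1 every cell with a changed Chr9 also carried a Chr12 gain. These were cells 1 and 34, with 1 copy of Chr9 and 3 of Chr12, and cell 8, with 3 copies of Chr9 and 4 of Chr12. Chr12 was gained in the 1 cell with a Chr9 gain and in 10 of 45 cells without one (22.2%). A Chr9 gain alone occurred in 0 of 46 cells, a Chr12 gain without a Chr9 gain in 10 (21.7%, interval 10.9% to 36.4%) and neither gain in 35 (76.1%). With 3 changed cells the pattern rests on few observations, and 2 of them, cells 8 and 34, had 10 abnormal autosomes of 19, Chr9 and Chr12 included.

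The other autosomes of the gained cells were compared next, over the 17 autosomes other than Chr9 and Chr12. In T-ALL 1, cells with a Chr12 gain carried more changes elsewhere, and the excess lay mainly in losses. Among the 11 Chr12-gained cells the number of abnormal autosomes was lowest at 0 (cell 38), had a median of 7 and was highest at 12 (cell 4), and in the 35 others the lowest was 0, the median 4 and the highest 10. The ranges overlapped over nearly their whole width. The means were 6.55 ± 2.91 (SD over 11 cells) and 4.74 ± 2.39 (SD over 35 cells), a difference of 1.80, which is less than either SD. Without the 4 cells with 10 or more abnormal autosomes of all 19, 3 of which had a Chr12 gain, the difference was 0.912. Cells 8 and 34 had 8 abnormal autosomes among the 17 and reached 10 only with Chr9 and Chr12. Their Chr12 gain thus counted towards leaving them out.

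**Figure D2:**
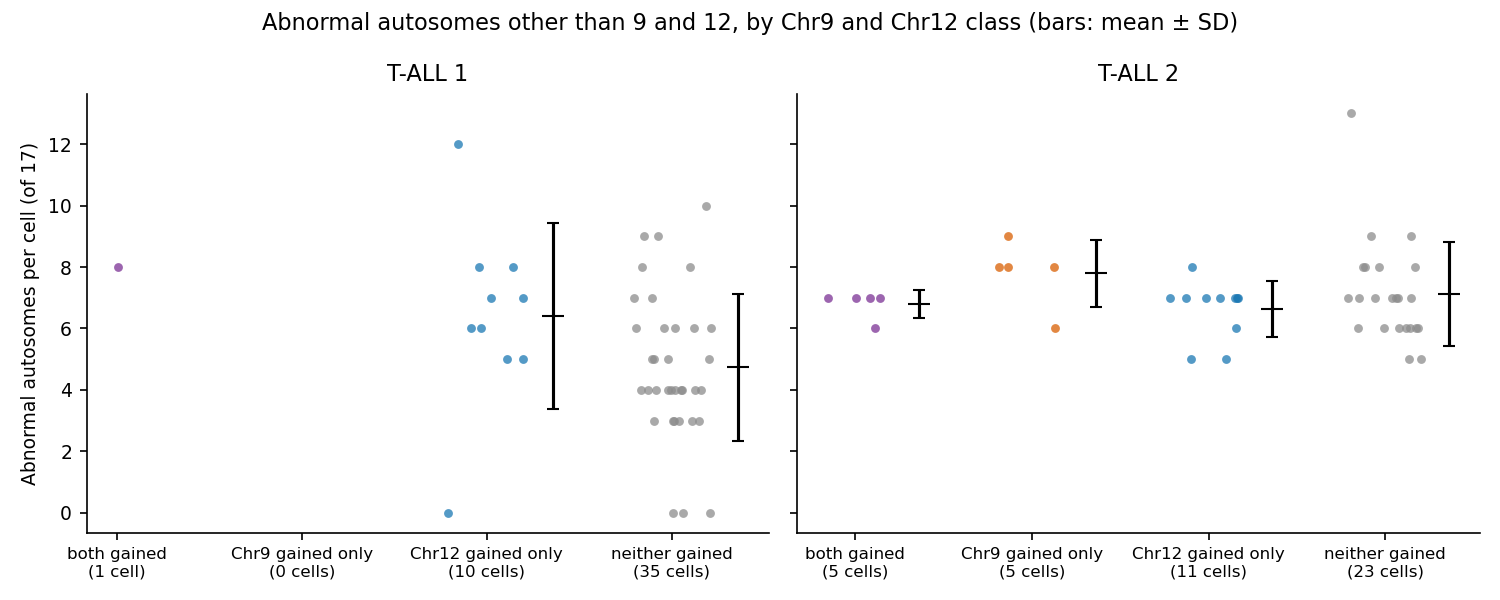
Abnormal autosomes per cell among the 17 other than Chr9 and Chr12 (vertical axis), by whether Chr9, Chr12, both or neither was gained, in T-ALL 1 and T-ALL 2. Each point is a cell and each bar a mean ± SD over cells; in T-ALL 1 the Chr12-gained cells reach 12 and average above the cells with neither gain, and in T-ALL 2 the class means lie between 6.64 and 7.8.

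Losses separated the cells of T-ALL 1 most clearly. At least 1 of the 17 autosomes was lost in 8 of 11 Chr12-gained cells (72.7%, interval 39.0% to 94.0%), against 5 of 35 cells without the gain (14.3%, interval 4.81% to 30.3%). The intervals did not overlap, and the difference was 58.4 percentage points (Newcombe interval 25.5 to 77.7). This share was computed after the counts per cell had been seen, so it is not independent of them. The gained cells held 14 losses in all and the others 5, or 1.27 ± 1.01 and 0.143 ± 0.355 per cell. These losses were scattered over 10 different autosomes in the gained cells, each lost in at most 2 of the 11 cells. When each autosome was set against its own most common state in place of 2, the difference in the share of cells with a loss was 28.6 points. Gains differed less, at 5.27 ± 2.61 per Chr12-gained cell and 4.60 ± 2.26 per other cell. Each call depends on the other chromosomes of its own library, and the part of library quality in these losses was not tested because no read counts were at hand.

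T-ALL 2 had the opposite order for Chr12. Its 16 Chr12-gained cells had between 5 and 8 abnormal autosomes with a mean of 6.69 ± 0.793, and its 28 other cells between 5 and 13 with a mean of 7.25 ± 1.60. The difference of -0.56 was smaller than either SD, and it was -0.35 without cell 40, the cell with a Chr12 loss and the most changes, which was left out after seeing the data. A loss among the 17 autosomes was found in 1 of 16 Chr12-gained cells (6.25%, interval 0.158% to 30.2%), against 5 of 28 others (17.9%, interval 6.06% to 36.9%). These intervals overlapped, and the difference was -11.6 points (Newcombe interval -30.1 to 12.6). It rests on few cells, and was -17.9 points without cell 5, the gained cell with a loss. Without cells 7 and 40, which had 10 or more abnormal autosomes of all 19, the difference was -5.29 points. Cell 7 had 9 abnormal autosomes among the 17 and reached 10 with its Chr9 gain. Among the other autosomes without a clonal gain, 13 of 16 Chr12-gained cells had 0 abnormal states, against 14 of 28 other cells. Beyond the clonal gains, most Chr12-gained cells of T-ALL 2 thus had no further change outside Chr9, whereas in T-ALL 1 this held for 1 of 11 Chr12-gained cells, against 18 of 35 others. That 1 cell, cell 38, held none of the clonal gains, and the 18 others include cells 25, 27 and 41, which also held none.

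For Chr9 in T-ALL 2 the gained cells and the others overlapped in each of these measures. The gained cells had 7.30 ± 0.949 abnormal autosomes (SD over 10 cells), against 6.97 ± 1.49 in the other 34, and a loss in 2 of 10 cells, against 4 of 34. The 5 cells with a Chr9 gain alone averaged 7.8 ± 1.10 abnormal autosomes, the 5 with both gains 6.8 ± 0.447, the 11 with a Chr12 gain alone 6.64 ± 0.924 and the 23 with neither gain 7.13 ± 1.69. The classes overlapped throughout.

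**Figure D3:**
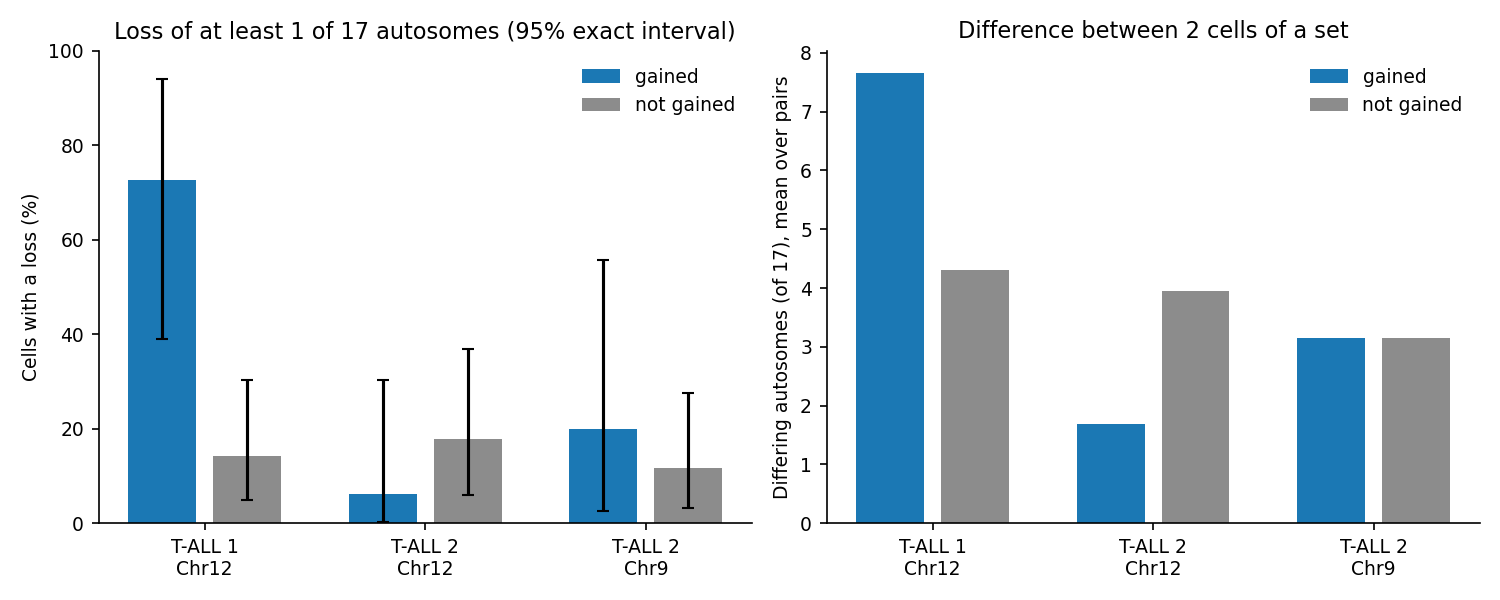
Left, percentage of cells with a loss of at least 1 of the 17 other autosomes, with exact 95% intervals; right, mean number of the 17 autosomes that differ between 2 cells of the same set. Gained cells are blue and cells without the gain grey, for Chr12 in T-ALL 1 and T-ALL 2 and for Chr9 in T-ALL 2; the Chr12-gained cells are above the rest in T-ALL 1 (72.7% against 14.3%, and 7.65 against 4.30 autosomes) and below it in T-ALL 2 (6.25% against 17.9%, and 1.68 against 3.95 autosomes).

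Gains of single other autosomes were compared next. For each of the 17 autosomes the share of gained cells was set side by side in cells with and without the Chr12 gain in either tumor and the Chr9 gain in T-ALL 2, 51 differences in all. The exact intervals of the shares overlapped for each, but the Newcombe interval of the difference left out 0 for 2 of the 51, Chr18 with Chr12 in T-ALL 1 and Chr8 with Chr9 in T-ALL 2, with no correction for the number of differences. In T-ALL 1 the differences furthest from 0 for Chr12 were those of Chr18, gained in 2 of 11 Chr12-gained cells and 0 of 35 others (18.2 points, interval 1.81 to 47.7), Chr17, gained in 6 of 11 and 25 of 35 (-16.9 points), and Chr19 (15.3 points). In T-ALL 2 those for Chr12 were Chr16, gained in 0 of 16 Chr12-gained cells and 4 of 28 others (-14.3 points), Chr10 (-10.7 points) and Chr15, gained in 16 of 16 and 25 of 28 (10.7 points). For Chr12 no autosome was among the 3 in both tumors. For Chr9 in T-ALL 2 they were Chr8, gained in 2 of 10 Chr9-gained cells (cells 1 and 7) and 0 of 34 others (20 points, interval 2.44 to 51.0), Chr18, gained in 0 of 10 and 5 of 34 (-14.7 points), and Chr16, gained in 2 of 10 and 2 of 34 (14.1 points). Chr16 thus lay on opposite sides of 0 for Chr9 and Chr12 within the same tumor, with 4 gained cells in all.

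**Figure D4:**
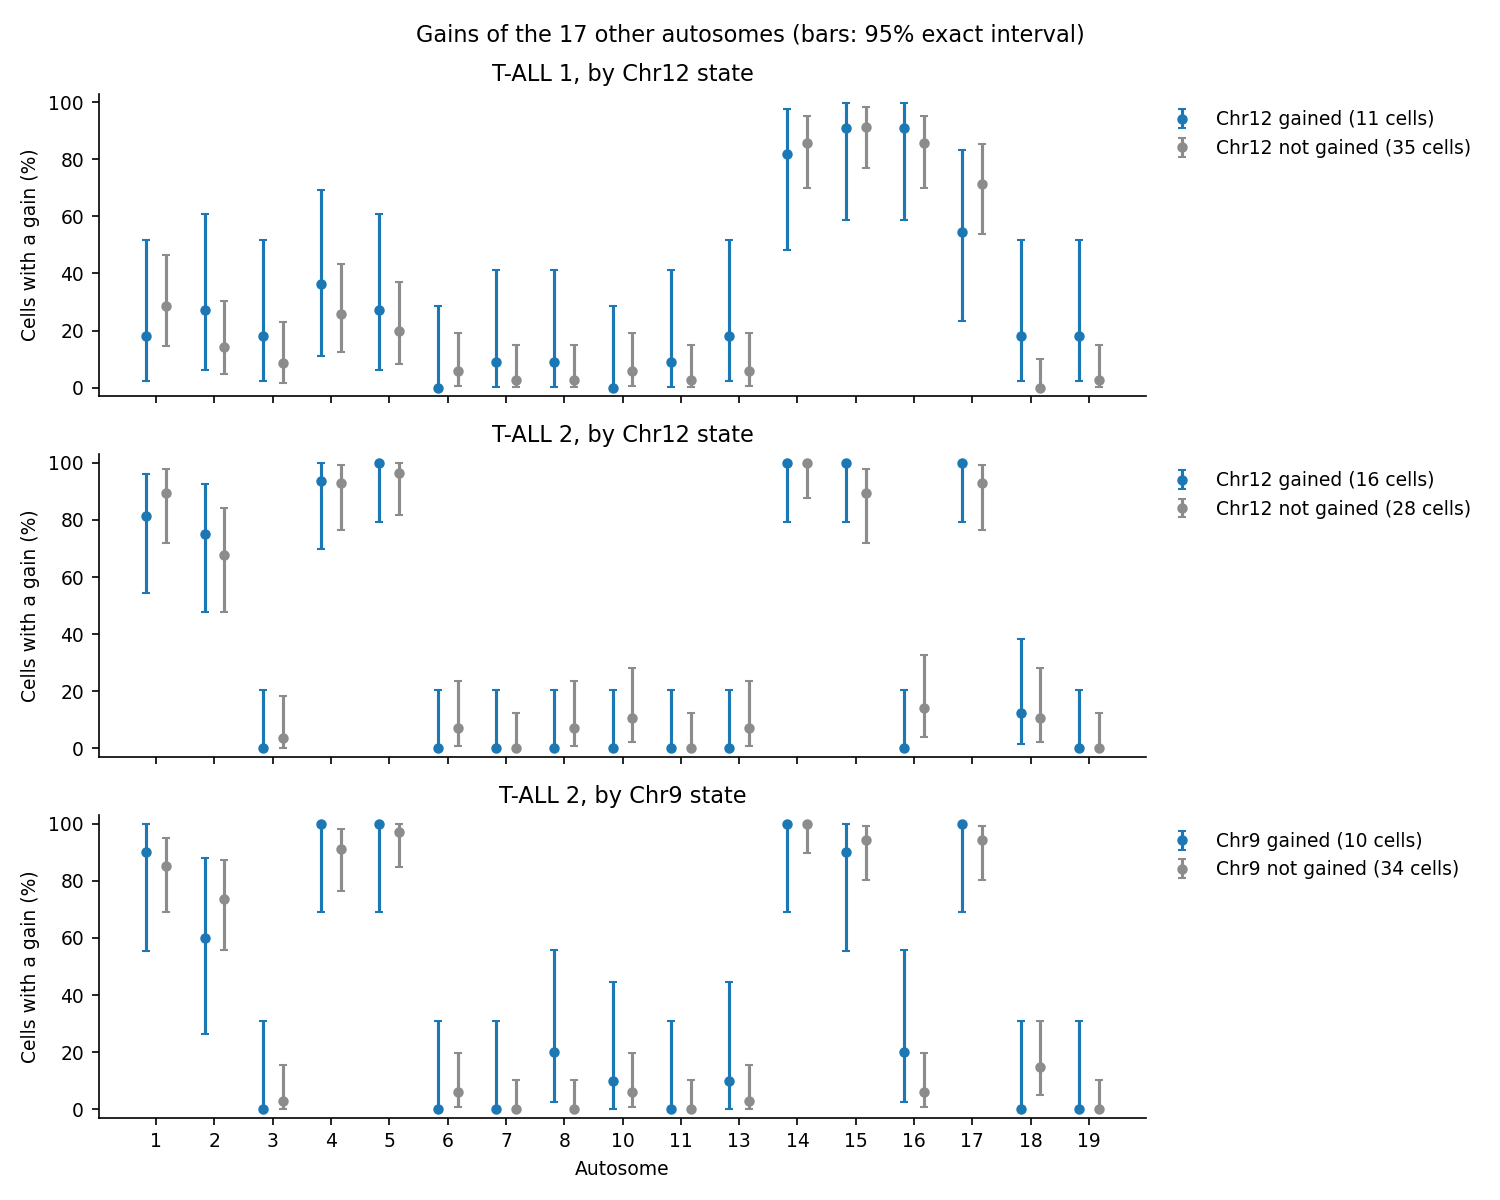
Percentage of cells with a gain of each of the 17 other autosomes (horizontal axis) in cells with the named gain (blue) and without it (grey), with exact 95% intervals. Clonally gained autosomes sit high in both sets of each tumor, and the blue and grey intervals overlap for every autosome.

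The subclonal gains of T-ALL 1 went together to different degrees. Among Chr1, Chr2, Chr3, Chr4 and Chr5, which were not clonal there and had at least 5 gained cells each, the 10 pairs had phi between 0.167 and 0.592 with a median of 0.348. The 5 pairs of Chr12 with these same autosomes had phi between -0.101 (Chr1) and 0.146 (Chr2) with a median of 0.101. All 5 values for Chr12 were below the lowest of the 10 others, a grouping of the pairs that was made after their values were seen. Chr12 and Chr1 were gained together in 2 cells and Chr12 and Chr4 in 4 cells, and all are values over the same 46 cells. With Chr17 the phi of Chr12 was -0.154, the lowest of all 36 pairs in T-ALL 1.

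The copy number of the clonally gained chromosomes was also set against the subclonal gains. In T-ALL 1, Chr14 had 4 or more copies in 3 of 11 Chr12-gained cells (27.3%, interval 6.02% to 61.0%), against 21 of 35 others (60%, interval 42.1% to 76.1%). In T-ALL 2, Chr15 had 4 or more copies in 1 of 16 Chr12-gained cells (6.25%), against 9 of 28 others (32.1%, interval 15.9% to 52.4%), and Chr14 was at 3 rather than 4 copies in 3 of 10 Chr9-gained cells (30%), against 2 of 34 others (5.88%). The intervals overlapped in each of the 3 cases. These are a selection among the clonally gained chromosomes, and the copy number counted differs between them. Other shares lay closer, such as Chr15 with 4 or more copies in T-ALL 1 (5 of 11 Chr12-gained cells, 19 of 35 others). Likewise, Chr14 had 4 or more copies in 14 of 16 Chr12-gained cells of T-ALL 2 and 25 of 28 others. The complete set of clonal gains was present in 6 of 11 Chr12-gained cells and 21 of 35 others in T-ALL 1, in 10 of 16 and 15 of 28 in T-ALL 2, and in 5 of 10 Chr9-gained cells and 20 of 34 others.

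Whole karyotypes showed how the gained cells were spread through each tumor. Between 2 cells, the number of the 17 autosomes in different states was counted and averaged over all pairs. In T-ALL 1, 2 Chr12-gained cells differed at 7.65 autosomes on average, 2 cells without the gain at 4.30 and a gained and an ungained cell at 6.02. In T-ALL 2 the order was turned round, with 1.68 between Chr12-gained cells, 3.95 between the others and 2.90 across. The Chr12-gained cells were thus the more varied set in T-ALL 1 and the more uniform set in T-ALL 2. Without cells that had a loss on any of the 17 autosomes, the gained set still had the higher mean in T-ALL 1, by 1.16 in place of 3.35 autosomes, and the lower mean in T-ALL 2, by -1.44 in place of -2.26. This alternative was chosen after seeing the data. In T-ALL 1 it left only cells 13, 38 and 40 in the gained set, so the mean there rests on very few pairs. Of the 17 autosomes, 6, 0 and 5 were abnormal in these cells. For Chr9 in T-ALL 2 the means were 3.16 within the gained cells, 3.15 within the others and 3.19 across.

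Gained cells of T-ALL 2 often had a counterpart that lacked the gain and was otherwise the same. Of its 16 Chr12-gained cells, 12 matched a cell without the gain at all 17 autosomes, and 6 matched one at Chr9 as well. Of these 12, 3 with both gains and 5 with a Chr12 gain alone had the same set of 17 states, the most common one of T-ALL 2. Of the 10 Chr9-gained cells of T-ALL 2, 5 had such a counterpart at the 17 autosomes and 4 at Chr12 as well. In T-ALL 1 this held for 1 of 11 Chr12-gained cells. That cell, number 38, was at 2 copies of every autosome except Chr12, and it was 1 of 4 cells of T-ALL 1 without any clonal gain, beside cells 25, 27 and 41. The 11 Chr12-gained cells of T-ALL 1 had 11 different sets of 17 states and the 35 others had 22. In T-ALL 2 the 16 Chr12-gained cells had 8 sets and the 28 others 23.

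Sets of 17 states that were shared by at least 2 cells numbered 6 in each tumor. In T-ALL 2, 5 of the 6 held cells of more than 1 Chr9 and Chr12 class, against 1 of 6 in T-ALL 1. The most common set of T-ALL 2 had 3 copies of Chr1, Chr2, Chr4, Chr5, Chr15 and Chr17 and 4 copies of Chr14. It was found in 11 cells, of which 3 had both gains, 5 a Chr12 gain alone, 0 a Chr9 gain alone and 3 neither. On this one background of 17 autosomes, Chr12 was gained in 8 of 11 cells, against 16 of 44 over the whole tumor, these cells included. A set that differed from it only by 4 copies of Chr15 was found in 3 cells, of which 0 had a Chr12 gain. The most common set of T-ALL 1 was found in 6 cells, and all of them had 2 copies of Chr9 and Chr12.

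**Figure D5:**
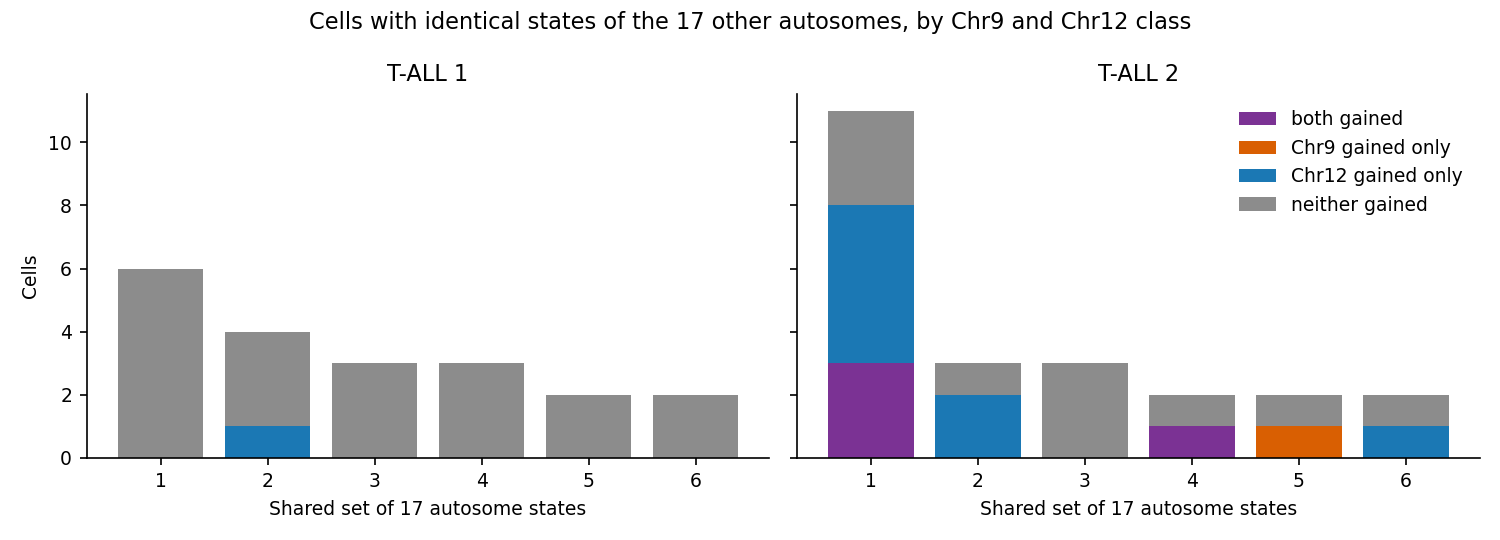
Cells (vertical axis) in each of the 6 sets of 17 autosome states that at least 2 cells shared in T-ALL 1 and T-ALL 2, coloured by whether Chr9, Chr12, both or neither was gained. Set 1 of T-ALL 2 holds 11 cells in 3 of the 4 classes, whereas a gain occurs in the shared sets of T-ALL 1 in 1 cell only.

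The few cells with a loss or an extra copy differed widely in the rest of their karyotype. Cell 40 of T-ALL 2, with 1 copy of Chr12, had 14 abnormal autosomes of 19, among them 5 losses. It was called at 0 copies of Chr8 and at 5 copies of Chr4 and of Chr15, and the quality of its calls was not tested. Cell 4 of T-ALL 2, with 1 copy of Chr9, had Chr9 as its only loss beside 5 gains, and it shared its 17 other states with cells 21 and 34, which had gained Chr12. In T-ALL 1, cell 1 had lost Chr9, Chr13 and Chr18, and cell 34 had lost Chr9, Chr6, Chr10 and Chr11. Cell 8, with 4 copies of Chr12, had lost Chr3 and Chr6 and was the only cell of T-ALL 1 with a Chr9 gain. Cell 7 of T-ALL 2, with 4 copies of Chr9, also had 4 copies of Chr8 and had lost Chr2 and Chr10.

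Each gene takes the copy number of its whole chromosome in these tables, so the genes below share the values of Chr9 or Chr12 and none was measured on its own. Positions are from the RefSeq annotation of GRCm38, the assembly that mm10 denotes. Chr9 carries 1201 of 20665 autosomal protein-coding genes (5.81%) and Chr12 679 (3.29%). Of 49 genes in 4 lists, all matched by symbol, 24 lie on Chr9 and 18 on Chr12. The lists were made with these chromosomes in view, so the counts say where genes lie and nothing about enrichment. Among 13 genes of T-cell identity and receptor signalling, 6 are on Chr9 and 3 on Chr12. On Chr9 they include Cd3e (chr9:44998735-45009663), Cd3d and Cd3g, which encode chains of the CD3 complex of the T-cell receptor, Thy1, a surface protein of T-cells, and Ets1, a transcription factor of lymphocytes. On Chr12, Bcl11b (chr12:107910403-108004145) encodes a transcription factor needed for T-cell commitment.

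Of 15 leukemia genes, 6 lie on Chr9 and 9 on Chr12. Kmt2a (chr9:44803355-44881352) encodes a histone methyltransferase that is rearranged in human leukemias. Chr12 carries Mycn (chr12:12936093-12941836), a MYC family oncogene, Max, which encodes the binding partner of MYC proteins, Akt1, a kinase of growth factor signalling, Id2, an inhibitor of E proteins, and Dnmt3a, a DNA methyltransferase. Of 10 DNA damage response genes, 7 are on Chr9 and 2 on Chr12, with Atm (chr9:53437122-53536828), Atr and Chek1, kinases of the damage checkpoints, all on Chr9 and Rad51b, which acts in recombination repair, on Chr12. Of 11 spindle and kinetochore genes, 5 are on Chr9 and 4 on Chr12. Ttk (chr9:83834651-83872390) encodes the checkpoint kinase Mps1, and Zw10 and Zwilch encode parts of the kinetochore complex that brings Mad proteins to unattached kinetochores, all on Chr9. Dync1h1 (chr12:110601395-110666944) encodes the dynein heavy chain, which removes checkpoint proteins from attached kinetochores. Each of the Chr9 genes was present at more than 2 copies in 10 of 44 T-ALL 2 cells and 1 of 46 T-ALL 1 cells, and each of the Chr12 genes in 16 of 44 and 11 of 46, against 0 of 45 thymus cells for either chromosome.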

How the data were processed

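Sorted single nuclei were sequenced by the authors after micrococcal nuclease digestion and indexed PCR. The deposited tables, 1 per animal, hold copy states of 21 chromosomes as whole numbers, 1 row a well. Per the labels, processing used bcl2fastq 1.8.2, Bowtie2 2.1.0, SAMtools 0.1.18 and mm10. AneuFinder is named in the study's methods for single-cell data, but the sources used here do not say which program assigned the deposited states. States of whole chromosomes hide changes of part of a chromosome, and a doubling of the genome would not show. No read counts were used, so depth is unknown.

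All 144 wells matched a label. Single-nucleus wells were used, and wells listed as dashes (2 of T-ALL 2 and 1 of the thymus) were left out; the Y column (1 column) was not used. Cells are not replicates of a genotype, so no test was made. Shares, also those of 0, have exact Clopper-Pearson intervals (95%), and differences of shares have Newcombe intervals. Chr9 and Chr12 and the gene lists were chosen with earlier results of these data known. Autosomes were named by rule: Chr9, Chr12, those with a clonal gain and, for each gain, the 3 others with the largest difference in gain share. Other autosomes were named outside this rule in the rankings by gained cells, in the pairs given with phi and in the states of single cells. Cells were named for a loss of Chr9 or Chr12, a state above 3, both gains or no clonal gain. Some cells were named outside this rule where a sentence rests on them. They include the cells of T-ALL 2 with a Chr9 gain alone and cells 4, 13 and 40 of T-ALL 1. The code was tested on simulated cells. Alternatives split cells by number, left out cells or autosomes, or changed the reference state. Where cells with 10 or more abnormal autosomes were left out, all 19 autosomes were counted, Chr9 and Chr12 included. Python 3.11.15, NumPy 2.4.6, SciPy 1.17.1 and Matplotlib 3.10.9 were used.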

Additional observations from a re-analysis of the deposited data

Results flagged for a closer look

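Chr12-gained cells differed from the rest in opposite directions in the T-ALLs, for 3 measures over the 17 other autosomes. Abnormal autosomes per cell differed by 1.80 in T-ALL 1 and by -0.56 in T-ALL 2 (gained minus not gained), 2.37 apart. The share of cells with a loss differed by 58.4 points in T-ALL 1 and by -11.6 points in T-ALL 2, 70.0 points apart. In T-ALL 2 this difference was -17.9 points without cell 5, -5.29 points without cells with 10 or more abnormal autosomes of all 19 and -3.33 points among odd cell numbers. The mean number of autosomes that differ between 2 cells of a set differed by 3.35 in T-ALL 1 and by -2.26 in T-ALL 2, 5.62 apart. Each tumor is 1 animal, so the difference between the tumors was not tested.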

How the results depend on the processing

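The 3 differences of Chr12-gained cells from the rest kept their sign in both tumors under all alternatives run, but not their size. In T-ALL 1, abnormal autosomes differed by 0.912 and differing autosomes by 2.14 without cells that had 10 or more abnormal autosomes of all 19. In T-ALL 2, abnormal autosomes differed by -0.274 without such cells and by -1.35 against the most common states, the loss share by -19.6 points against the most common states, and differing autosomes by -1.12 among odd numbers and -1.24 without clonally gained autosomes. The Chr12 gain shares stayed within their intervals. Numbering split the Chr9 gains of T-ALL 2 unevenly, with 38.1% among odd and 8.70% among even cell numbers, and the cause was not tested. Among even numbers, with 2 Chr9-gained cells, Chr12 gains were 61.9 points more frequent in Chr9-gained cells, and the Chr9 differences turned to -0.0952 abnormal autosomes, -9.52 points for cells with a loss and -3.23 differing autosomes. Leaving out each cell in turn, the Chr9 difference in cells with a loss ran from -0.654 (without cell 5 or 7) to 10.9 points, and that in differing autosomes, 0.00226 over all cells, from -0.709 (without cell 1) to 0.462. Values that rest on 1 cell went to 0 without it. These were the Chr9 gain and the joint gain of T-ALL 1 (cell 8, each 0 to 2.22%), the Chr9 loss (cell 4) and the Chr12 loss (cell 40) of T-ALL 2 (each 0 to 2.33%), and the matched Chr12-gained cell of T-ALL 1 (cell 38, 0 to 1). Without cells that had 10 or more abnormal autosomes of all 19, the Chr9 gain and joint gain of T-ALL 1 and the Chr12 loss of T-ALL 2 were each at 0%. For T-ALL 1 this was partly fixed by the filter. Cell 8 had 8 abnormal autosomes among the 17 others and reached 10 only with its Chr9 and Chr12 gains. Among odd numbers alone, the Chr9 gain and joint gain of T-ALL 1 and the Chr9 and Chr12 losses of T-ALL 2 were each at 0%. Gained cells with an ungained match numbered 0 among odd and 0 among even numbers for Chr12 in T-ALL 1, 4 and 7 for Chr12 in T-ALL 2, and 2 and 2 for Chr9 in T-ALL 2, where fewer cells were at hand. For Chr12 in T-ALL 1 there were 0 without cells lacking every clonal gain, 3 without clonally gained autosomes and 3 when states were collapsed to loss, 2 and gain. T-ALL 2 had no cell lacking every clonal gain, so that alternative did not apply to it. With Wilson intervals the Chr9 gain shares of the tumors no longer overlapped (up to 11.3% in T-ALL 1, from 12.8% in T-ALL 2). Since Chr9 was chosen for its gains in T-ALL 2, this contrast is a description only. No paired analysis was possible because no test was made and each group is 1 animal. The unknown depth limits every call.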
